A study of Mus musculus with 2 samples.

Results

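Among 20060 spleen cells that passed the filters, 896 were conventional dendritic cells (cDCs) of the type marked by Clec4a4 and Dtx1. The wild-type mouse gave 788 of them among 9424 cells, and the mouse modelling sickle cell disease (SCD) gave 108 among 10636. The cells were picked by unique molecular identifiers (UMIs), each of which stands for a captured transcript. A member held at least 3 UMIs summed over Clec4a4, Dtx1, Esam, Mmp12 and Cd4, here called the gate sum. It held at most 1 UMI summed over Cd209a, Clec10a and Mgl2, at most 1 over Xcr1 and Clec9a, at most 1 over Ccr7 and Fscn1, and at most 2 of Siglech. The MHC class II genes Cd74, H2-Aa, H2-Ab1 and H2-Eb1 made up at least 1.5% of its UMIs, and S100a8 with S100a9 made up under 1%. The levels of these genes in the members follow from the choice of cells and are given as a description only.

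Both libraries were made from spleens of untreated mice aged 12 to 16 weeks, after lysis of red blood cells and bead-based negative enrichment of dendritic cells (DCs), and both ran on the same chip. The mouse called wild-type was a non-sickling control that shared alleles with the SCD mouse. Each animal was homozygous for Hbatm1Paz, which removes mouse alpha globin, and each carried the human sickle globin transgene Tg(HBA-HBBs)41Paz. The control held the transgene in hemizygous and Hbbtm1Tow, the targeted mouse beta globin locus, in heterozygous form, while the SCD animal was homozygous for both. This Berkeley line has a mixed genetic background. The labels and the study call the wild-type controls littermates. With 1 mouse and 1 library a group, no difference between the animals could be set against a spread between replicates, and no test was run. Cells of 1 animal are not replicates, and every interval in brackets covers counting error only (95%, exact Clopper-Pearson for shares and exact Poisson for summed UMIs).

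Splenic cDCs capture and present antigen and fall into the cDC1 and cDC2 branches. The cDC2 branch holds an ESAM-high, CD4-positive type, which sits in the marginal zone and bridging channels, needs Notch2 and RBPJ signals as well as the lymphotoxin-beta receptor, and is known for priming CD4 T cells. The other splenic cDC2 type expresses Cd209a, Clec10a and monocyte-like genes such as Ccr2 and Lyz2 and depends less on Notch. Dtx1 (Deltex) is an E3 ligase of the Notch pathway, Clec4a4 encodes the inhibitory lectin receptor DCIR2, Esam an adhesion molecule and Mmp12 a metalloelastase.

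The wild-type library held 97880318 UMIs in 10845 barcodes and the SCD library 189688217 UMIs in 13447 barcodes, and 86.9% and 79.1% of the barcodes were kept. The libraries shared 88 barcode sequences, which were carried by 4 wild-type and 0 SCD members. Members had a median of 7828 UMIs (range 1285 to 22868) and 2785 genes in the wild-type library and of 7518 UMIs (range 1940 to 17194) and 2646 genes in the SCD library, so that depth per cell was similar. Summed over cells, however, the 788 wild-type members gave 6714637 UMIs and the 108 SCD members 848062. Levels are summed UMIs of each gene divided by all summed UMIs of the same cells (CPM, the unit in which all genes add up to 1e+06). The floor used for a gene at 0, 3 UMIs over a group, was 0.447 CPM for wild-type members and 3.54 CPM for SCD members, so rare transcripts were measured with less precision in the latter.

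The members carried the markers that name them in both libraries (plot of gate sums per cell). Dtx1 was at 270 CPM in wild-type and 229 CPM in SCD members, and had a UMI in 572 of 788 (72.6%) and 77 of 108 (71.3%) of them. Clec4a4 was at 78.5 and 96.7 CPM, Esam at 33.1 and 30.7 CPM, Mmp12 at 217 and 146 CPM and Cd4, the T cell coreceptor that this DC type also carries, at 228 and 198 CPM. All of these genes were present in both animals, with Mmp12 having the lowest SCD over wild-type ratio of the 5 (0.556 to 0.810). The markers Ppp1r14a and Sash1 were not part of the rule and were present as well. They are among the markers that name the type, chosen with earlier results of these data known, so their levels are a description only. Ppp1r14a, an inhibitor of myosin phosphatase, was at 324 CPM (628 of 788 cells, 79.7%) in wild-type and 336 CPM (88 of 108 cells, 81.5%) in SCD members. Sash1, a scaffold protein, was at 247 CPM (612 cells, 77.7%) and 173 CPM (73 cells, 67.6%). The markers of the label were thus present in both libraries, which is no independent support for it. In cDC2 of the Cd209a type, chosen with the opposite thresholds (119 wild-type and 102 SCD cells), Ppp1r14a was at 33.0 and 27.9 CPM and Sash1 at 36.6 and 17.3 CPM.

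**Figure D1:**
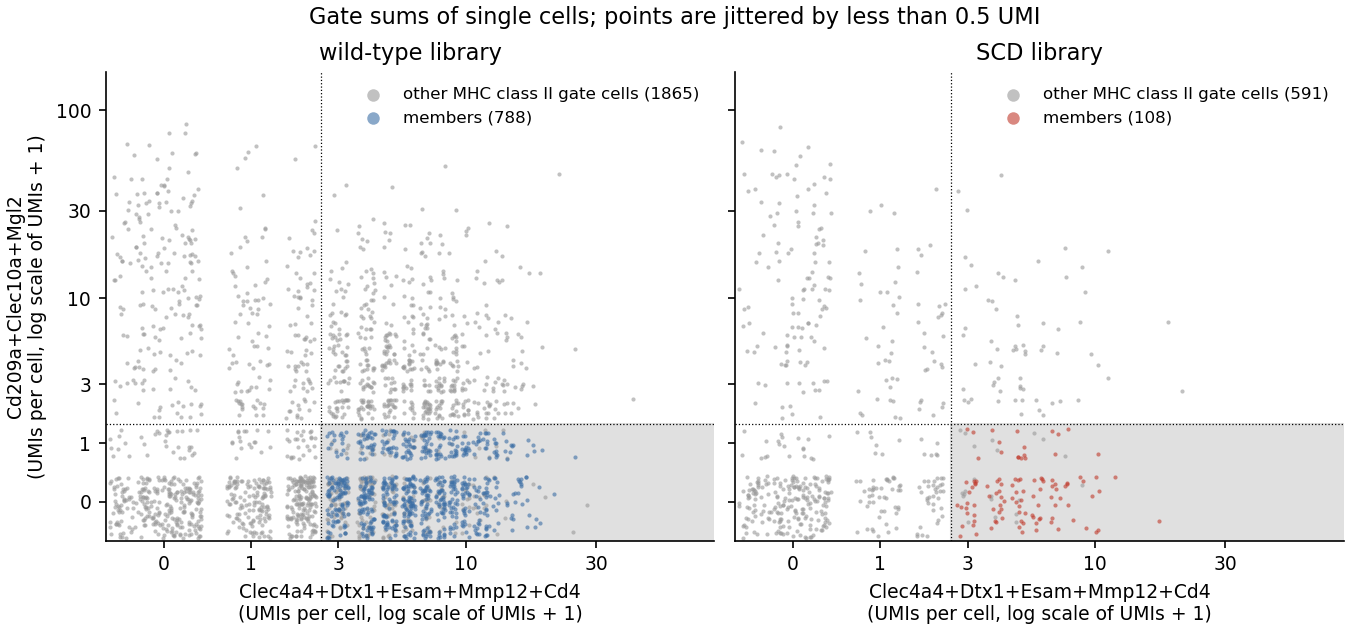
UMIs per cell of the 5 gate genes (horizontal axis) against those of Cd209a, Clec10a and Mgl2 (vertical axis), both on a log scale of UMIs + 1, for cells of the MHC class II gate in the wild-type (left) and SCD (right) library. Each point is 1 cell, members are coloured (788 and 108), dotted lines mark the thresholds and the shaded corner holds the cells that meet both. Grey points in the shaded corner missed another limit of the rule.

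To compare shares of cells with a UMI at equal depth, each cell was thinned to 3000 UMIs, which left out 5 wild-type and 2 SCD members. Ppp1r14a was then seen in 53.8% (50.2 to 57.3) of 783 wild-type and 57.5% (47.6 to 67.1) of 106 SCD members, against 9.40% and 8.82% of cells of the Cd209a type. Sash1 was seen in 48.4% (44.9 to 52.0) and 38.7% (29.4 to 48.6) of members, against 10.3% and 7.84% of the Cd209a type. Neutrophils, which should lack these genes, gave the background of free RNA. Only those with at least 3000 UMIs could be used, which left out 2652 of the 3970 wild-type neutrophils. In them, Ppp1r14a was seen in 1.59% of 1318 wild-type and 0.222% of 6298 SCD cells and Sash1 in 1.44% and 0.191%, at the same 3000 UMIs. The shares in members were far above this background in both libraries, and the intervals of the wild-type and SCD members overlapped for both genes.

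Markers of other cell types were at very different levels in the members. The 12 T and NK cell markers summed to 7.59 and 8.25 CPM, and 9 of them were detected in wild-type and 2 in SCD members. Cd3g, Ncr1 and Gzma were at 0 in both libraries. B cell markers summed to 56.4 and 57.8 CPM, with Vpreb3 at 0 in the wild-type and Pax5 and Fcmr at 0 in the SCD members. The cDC1 list was at 888 and 921 CPM, against 10677 and 11359 CPM in cDC1, and the mature DC list at 418 and 435 CPM, against 9098 and 7946 CPM in mature DCs. Classical monocyte markers had the highest sum of these lists in wild-type members, at 2377 CPM (per cell 0 to 11175, median 2113), and were at 2630 CPM in SCD members, against 4797 and 5642 CPM in the Cd209a type. The sum of red pulp macrophage markers was 233 and 133 CPM. The 12 neutrophil markers, which include S100a8 and S100a9, summed to 1087 CPM in wild-type members (per cell 0 to 12812, median 920) and to 4985 CPM in SCD members (2752 to 7697, median 5124). All 12 were detected in both. Neutrophils themselves had 303560 and 432367 CPM of the list and numbered 3970 and 7304 cells. Erythroid markers summed to 746 and 114 CPM, and 1 wild-type member alone reached 288355 CPM of them. Hbb-bs, of the targeted beta globin locus, was at 441 and 5.90 CPM in members, with 2637 of its 2961 wild-type UMIs in 1 cell. Hba-a1 was at 115 and 46.0 CPM although the labels give a null alpha globin locus for both animals.

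The promoters of Adam23, a gene high in members of both libraries, and of Tbx21 (T-bet), a factor that marks Notch-dependent cDC2s, are shown with the motif that links genes to Notch. Each run holds the 250 bases before the gene's start in RefSeq, read 5′ to 3′ on the gene's strand, from chr1:63445641-63445890 (plus strand) and chr11:97115332-97115581 (minus strand) of GRCm38.p6, with no annotated exon inside. Capitals mark the core motif of RBPJ, the DNA-binding partner of Notch (TGGGAA, or TTCCCA on the other strand).
Adam23: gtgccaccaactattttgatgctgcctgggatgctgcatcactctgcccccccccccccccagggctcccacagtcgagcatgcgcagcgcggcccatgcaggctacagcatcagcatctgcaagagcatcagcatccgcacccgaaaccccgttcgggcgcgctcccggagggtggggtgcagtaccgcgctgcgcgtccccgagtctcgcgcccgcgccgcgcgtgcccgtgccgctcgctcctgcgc
Tbx21: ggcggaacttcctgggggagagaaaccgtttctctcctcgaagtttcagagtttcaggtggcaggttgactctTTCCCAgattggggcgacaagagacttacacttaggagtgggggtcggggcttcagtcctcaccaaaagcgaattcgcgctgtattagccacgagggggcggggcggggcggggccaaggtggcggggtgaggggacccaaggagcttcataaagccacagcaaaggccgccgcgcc

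The Tbx21 window holds the motif once, starting 177 bases before the start, and the Adam23 window does not hold these letters. Tbx21 itself was rare, at 11.2 CPM (75 UMIs) in wild-type and 8.25 CPM (7 UMIs) in SCD members, against 2.81 and 3.29 CPM in the Cd209a type. Of all 32851 mouse promoter windows of this length, 7094 (21.6%) hold the motif on either strand. It was in 11 of 19 windows of the list of Notch-dependent cDC2 genes (57.9%, 15 of 19 genes with an entry), in 1 of 10 windows of the 12 genes most above the Cd209a type (Tmod2) and in 6 of 9 windows of the 12 genes most below it. Among the gate genes, 2 of 5 had an entry, and none of their 3 windows held it. These counts describe letters in a window and no binding was measured.

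The members were a smaller part of the SCD spleen cells. They made up 8.36% (7.81 to 8.94) of kept cells from the wild-type mouse but 1.02% (0.834 to 1.23) of those from the SCD mouse, a ratio of 0.121 (0.0995 to 0.148). Neutrophils take up much of the SCD library, so the share was also taken among MHC class II gate cells, which met the limits on MHC class II and S100 genes (2653 and 699 cells). There it was 29.7% (28.0 to 31.5) and 15.5% (12.9 to 18.4), a ratio of 0.520 (0.433 to 0.625). Among all kept cells under the S100 limit it was 16.4% and 3.59%, a ratio of 0.219. The share was lower in the SCD animal on these 3 denominators, and the size of the difference depended on which was used. It also depended on depth. With the rule applied to cells thinned to 5000 UMIs, the ratio was 0.0721 of kept cells and 0.423 of MHC class II gate cells. Bead enrichment and filtering act on these shares too, and a share cannot tell fewer members from more of the other cells.

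The other DC types had other ratios between the animals (plot of shares). The Cd209a type was 1.26% (1.05 to 1.51) of kept wild-type and 0.959% (0.783 to 1.16) of kept SCD cells, a ratio of 0.760 (0.584 to 0.988). Among MHC class II gate cells it was 4.49% and 14.6%, a ratio of 3.25 (2.53 to 4.18). In the wild-type library, members thus outnumbered the Cd209a type 788 to 119, and in the SCD library 108 to 102. cDC1 were 1.16% and 1.52% of kept cells (ratio 1.32, 1.03 to 1.68), and mature DCs with Ccr7 and Fscn1 were 4.62% and 0.348% (ratio 0.0754, 0.0539 to 0.105). Among MHC class II gate cells, cDC1 were 4.11% and 23.2% (ratio 5.64, 4.49 to 7.09) and mature DCs 16.4% and 5.29% (ratio 0.323, 0.233 to 0.447). The interval of the members' ratio lay below those of the Cd209a type and cDC1 on both denominators. It overlapped that of mature DCs on both.

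**Figure D2:**
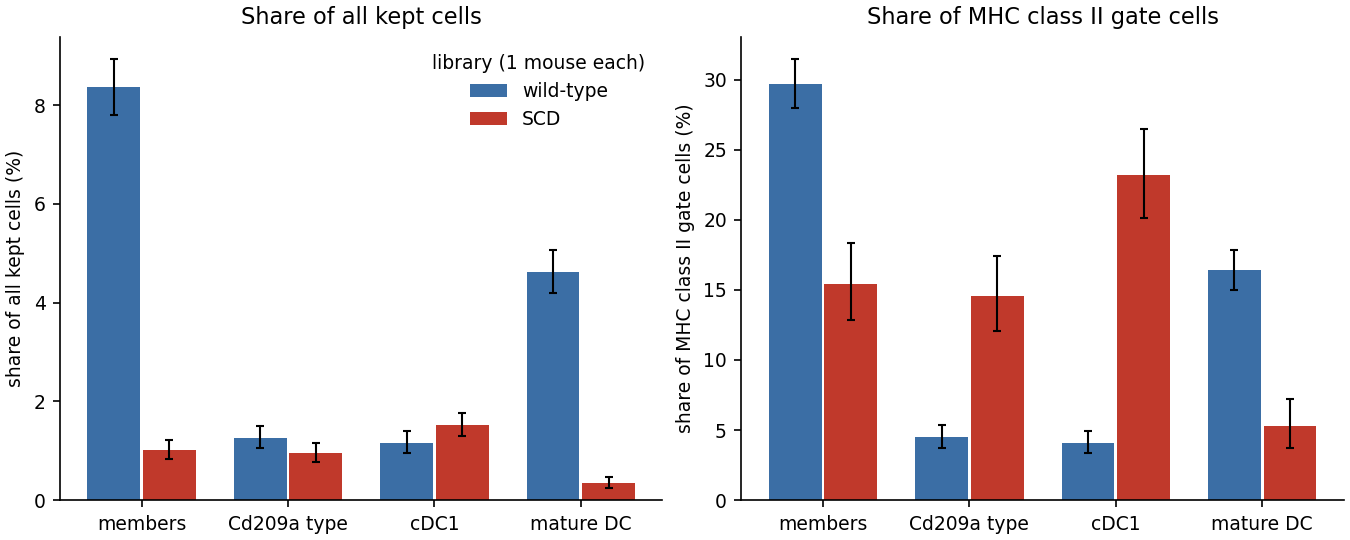
Share of all kept cells (left) and of MHC class II gate cells (right), in percent, that were members, cDC2 of the Cd209a type, cDC1 or mature DCs, in the wild-type (blue) and SCD (red) library. Bars are the shares of 1 mouse each and error bars exact 95% binomial intervals, which cover counting error only. Members were 8.36% and 1.02% of kept cells, and the Cd209a type 1.26% and 0.959%.

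The rule was applied in steps. A gate sum of at least 3 was met by 1916 wild-type and 295 SCD cells. The MHC class II limit left 1741 and 210, the S100 limit 1649 and 196, the Siglech limit 1456 and 150, the limit on Ccr7 and Fscn1 1188 and 137, that on Xcr1 and Clec9a 1173 and 135, and that on the Cd209a genes 788 and 108. The last step set aside mixed cells with both gate sums, 385 in the wild-type and 27 in the SCD library. Just outside the threshold, 95 wild-type and 28 SCD cells met all other limits with a gate sum of 2, and just inside it 109 and 22 members had a gate sum of 3. Of MHC class II gate cells, those with a sum of 2 were 3.58% and 4.01%, a ratio of 1.12 (0.740 to 1.69). Members with a sum of 3 were 4.11% and 3.15%, a ratio of 0.766 (0.488 to 1.20), beside 0.520 for all members. Of kept cells the 2 ratios were 0.261 and 0.179, beside 0.121. The ratio between the animals thus depended on the gate sum. Of neutrophils, 33 of 3970 (0.831%) and 23 of 7304 (0.315%) reached a gate sum of 3, at a median depth of 2572 and 7304 UMIs. Of the cells under both the MHC class II and the S100 limit, 161 of 2154 (7.47%) and 73 of 2306 (3.17%) reached it, at a median of 8106 and 10780 UMIs, beside 7828 and 7518 UMIs in members. Beyond the filters on cells, 3 of 297 wild-type and 0 of 1222 SCD barcodes with over 5000 genes passed the rule, as did 13 of 408 and 7 of 766 barcodes over the mitochondrial or ribosomal limit.

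Single members varied in which gate genes they showed. All 5 genes were seen in 33 wild-type members (4.19%) and 1 SCD member, 3 of them in 301 (38.2%) and 37 (34.3%), and 1 alone in 57 (7.23%) and 13 (12.0%). The median gate sum was 6 UMIs in wild-type and 5 in SCD members, and the highest was 25 and 17. A gate sum of 3 to 4 was held by 27.4% and 38.9% of members, of 8 to 12 by 29.3% and 14.8%, and over 12 by 7.61% and 0.926%. Cd4 alone carried 21 and 7 members past the threshold, Dtx1 alone 25 and 4, and Mmp12 alone 11 and 2. No member passed through Clec4a4 or Esam alone.

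Genes the rule did not use were set against the number of gate genes a member showed. At 3000 UMIs, Ppp1r14a was seen in 48.9% (43.0 to 54.9) of wild-type members with 1 or 2 gate genes, 55.5% (49.7 to 61.2) of those with 3 and 57.9% (50.8 to 64.8) of those with 4 or 5. Sash1 was seen in 47.2%, 49.5% and 48.5% of the same groups, Siglecg, an inhibitory lectin, in 46.5%, 47.5% and 51.0%, Kit, the stem cell factor receptor, in 50.4%, 54.5% and 54.0%, and Ltb, a lymphotoxin subunit, in 87.2%, 87.6% and 88.6%. In the wild-type library the intervals of the 3 groups overlapped for each of these genes. The SCD groups held 51, 36 and 19 cells and varied more. Sash1 was seen in 37.3% (24.1 to 51.9), 27.8% (14.2 to 45.2) and 63.2% (38.4 to 83.7) of them, and Siglecg in 35.3% (22.4 to 49.9), 66.7% (49.0 to 81.4) and 47.4% (24.4 to 71.1).

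Neighbourhoods built without the genes of the rule placed members among members and mixed cells. In 20 principal components of MHC class II gate cells, 54.5% of the 15 nearest neighbours of a wild-type member were members, which were 29.7% of the cells, and 1.62% were of the Cd209a type (4.49% of the cells). In the SCD library the values were 58.4% (15.5% of the cells) and 2.65% (14.6%). Mixed cells were above their share around members too. They were 24.8% of these neighbours in the wild-type library (14.5% of the cells) and 10.3% in the SCD library (3.86%). The neighbourhoods thus did not set the members apart from the mixed cells. Among the neighbours of mixed cells, members were above their share of all cells in both libraries. In the wild-type library these neighbours were 43.1% members (29.7% of the cells) and 2.63% Cd209a type (4.49%). In the SCD library they were 38.3% members (15.5% of the cells) and 15.1% Cd209a type (14.6%). Other mixed cells made up 36.35% of them in the wild-type and 18.3% in the SCD library, also above their share.

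Outside the genes of the rule, few genes differed by 2-fold or more between the members of the 2 animals. Of 3480 such genes expressed in members (at least 50 CPM and 20 UMIs in 1 library), 9 were at least 2-fold higher (0.259%) and 11 at least 2-fold lower (0.316%) in the SCD members, on log2 ratios with a pseudocount of 5 CPM (scatter of all expressed genes). The median log2 ratio over all of them was -0.04. The counts of higher and lower genes depended on the rule. They were 10 and 26 with Cd4 left out of the gate sum and 13 and 19 with a gate sum of at least 5. Among the genes of the rule, which are not in these counts, S100a8 (297 and 1607 CPM, log2 ratio 2.42) and S100a9 (405 and 2210 CPM, 2.43) were also past 2-fold. Of the 9 higher genes, Camp, Ngp, Ltf, Lcn2 and Retnlg were neutrophil markers, and of the 11 lower genes Mmp9 was in the neutrophil list and Hbb-bs, Hbb-bt and Hba-a1 were globins. For Hba-a1 the share of cells went the other way from its sum. At 3000 UMIs it was seen in 4.47% (3.13 to 6.16) of wild-type and 11.3% (5.99 to 18.9) of SCD members, and in 3.41% and 14.7% of neutrophils. Camp, a granule peptide, was at 40.2 and 357 CPM in members and at 20846 and 36430 CPM in neutrophils. The neutrophil list was also higher in the SCD animal's Cd209a type (918 and 3738 CPM) and cDC1 (572 and 3594 CPM), and its part in other differences was not tested.

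**Figure D3:**
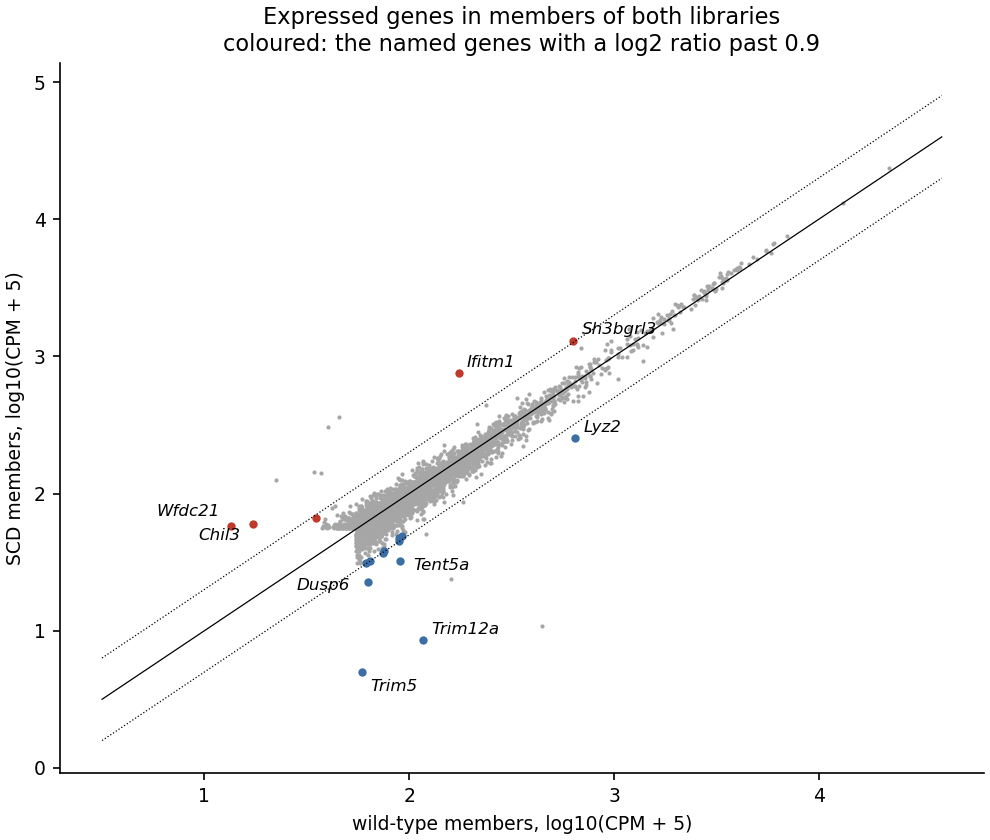
Expressed genes in members, with the level in wild-type members on the horizontal and in SCD members on the vertical axis, both as log10(CPM + 5). Points are genes, the solid line marks equal levels and dotted lines a 2-fold difference, and named genes are red where higher and blue where lower in the SCD members. Grey points beyond the dotted lines are neutrophil markers and globins, which the naming rule left out.

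Ifitm1, an interferon-inducible membrane protein, and Wfdc21 had the largest log2 ratios among the higher named genes. Ifitm1 was at 169 CPM (159 to 179) in wild-type and 746 CPM (689 to 807) in SCD members, a log2 ratio of 2.11 (ratio 4.00 to 4.87), and was seen in 30.1% (26.9 to 33.4) and 63.9% (54.1 to 72.9) of them. In SCD members 10 cells held 53.1% of its UMIs. The Cd209a type had 34.4 and 207 CPM and mature DCs 77.3 and 313 CPM, so Ifitm1 was higher in the SCD animal there too. cDC1 had 8.21 and 8.42 CPM. Neutrophils ran the other way, at 797 and 228 CPM. When members were limited to S100 genes under 0.3% of UMIs, an alternative chosen after the data were seen, the log2 ratio was 0.42, with 17 SCD members left. Wfdc21, at 8.49 and 53.1 CPM in members (log2 ratio 2.11), and Chil3, a chitinase-like protein at 12.2 and 55.4 CPM (1.81), were at 3122 and 5565 CPM and at 2801 and 4505 CPM in neutrophils.

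Sh3bgrl3, a small thioredoxin-fold protein, was higher in the SCD members, Cd209a type and cDC1. It was at 627 CPM in wild-type and 1299 CPM in SCD members, a log2 ratio of 1.05 (ratio 1.94 to 2.22), and was seen in 94.2% and 99.1% of members. The log2 ratio was 0.97 in the Cd209a type and 0.73 in cDC1, and neutrophils were at 904 and 1375 CPM. Odc1, the first enzyme of polyamine synthesis, was at 29.9 and 61.3 CPM (0.92; ratio 1.48 to 2.79). In SCD members, 30 of its 52 UMIs lay in 10 cells. Clec4a3, a lectin receptor next to Clec4a4 on chromosome 6, was at 33.8 and 60.1 CPM (0.75), with 42 of 51 UMIs of the SCD members in 10 cells. The other higher named genes, Flot1, CT010467.1, Gm8797, Inpp5b and Fam204a, had log2 ratios of 0.90, 0.89, 0.89, 0.68 and 0.66.

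The lowest ratios among the named genes belonged to TRIM genes close to the targeted beta globin locus. Trim12a was at 111 CPM (747 UMIs in 55.2% of cells) in wild-type and 3.54 CPM (3 UMIs in 3 cells) in SCD members, a ratio with a counting interval of 0.00654 to 0.0933. Trim5 was at 53.5 CPM (359 UMIs) in wild-type members and at 0 UMIs in SCD members, which is at least 15.1-fold lower, taking 3 UMIs over the group as the floor. Trim12a was lower in the SCD animal's Cd209a type and cDC1 too, at 30.9 and 3.29 CPM and at 49.2 and 2.81 CPM. Trim30b was at 70.1 and 33.0 CPM (log2 ratio -0.98) and its neighbour Trim30a at 78.5 and 50.7 CPM (-0.58). In GRCm38 (GENCODE vM21), Trim5 lies at chr7:104263386-104288094, Trim12a at chr7:104299894-104315466 and Trim30b at chr7:104355382-104369884, which is 435, 472 and 527 kb from the adult beta globin gene Hbb-bs (chr7:103826534-103828096). These genes have near-identical neighbours, so their counts are uncertain, and the genotype at the globin locus and linked alleles cannot be told apart.

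Other genes were lower in SCD members by less. Tent5a, a noncanonical poly(A) polymerase, was at 85.5 CPM (36.2% of cells) in wild-type and 27.1 CPM (13.9%) in SCD members, a log2 ratio of -1.49 (ratio 0.200 to 0.481), against -0.25 in the Cd209a type and 0.50 in cDC1 (8.21 and 13.6 CPM). Dusp6, a phosphatase that acts on ERK, was at 57.6 CPM (33.2%) and 17.7 CPM (11.1%), a log2 ratio of -1.47, and at -1.05 in the Cd209a type and -0.66 in cDC1. Lpcat1, a lipid acyltransferase, was at 69.3 and 31.8 CPM and Pik3ca, the catalytic PI3K subunit alpha, at 59.3 and 27.1 CPM. Entpd1 (CD39, an ectonucleotidase), Pde7a, Specc1 and Tsc22d3 (GILZ, a glucocorticoid-induced gene) had -0.99, -0.98, -0.93 and -0.91. Tsc22d3 was lower in the Cd209a type by a similar amount (-0.92) but at -0.28 in cDC1. Mmp9, a gelatinase, was at 177 CPM (47.7% of cells) in wild-type and 81.4 CPM (34.3%) in SCD members, against 33.0 and 24.7 CPM in the Cd209a type and 2032 and 1762 CPM in neutrophils.

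The level of Lyz2 (lysozyme) rested on a few cells. Its sum was 638 CPM in wild-type and 248 CPM in SCD members, a log2 ratio of -1.35. However, 81.6% of the 4281 wild-type UMIs came from 10 members, and a single cell held 518. Lyz2 was seen in 50.3% (46.7 to 53.8) of wild-type and 82.4% (73.9 to 89.1) of SCD members, and the median level per cell was 50.2 and 209 CPM. Without the 2% of members with the most Lyz2 UMIs the log2 ratio was 1.43, and without called doublets -0.02, so its direction depended on these cells. The first of these settings was added after the data were seen. Neutrophils were at 7483 and 10398 CPM.

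The gene lists showed small differences between the animals in members, none with more than 1 gene past 2-fold (plot of gene lists). Since 0.259% and 0.316% of all expressed genes were at least 2-fold higher or lower, a count of 0 in a list of this size is near the background and nothing is read from it. For the cDC identity list, 17 of 20 genes were expressed and 0 were at least 2-fold higher or lower. A ratio above 1 was seen for 2 of the 17, beside 1523 of all 3480 expressed genes. The median log2 ratio was -0.20, beside -0.04 over all expressed genes. Zbtb46, a cDC-defining transcription factor, was at 127 and 89.6 CPM (-0.48), Flt3, the cytokine receptor that DCs need, at 135 and 134 CPM (0.00) and Itgax (CD11c) at 373 and 286 CPM (-0.38). Csf2rb, the common beta chain of the GM-CSF receptor, was the lowest of the list at 159 and 93.2 CPM (-0.74). Spi1 (PU.1) was the highest at 510 and 592 CPM (0.21).

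The Notch and lymphotoxin pathway was expressed in part. Of 22 genes, 10 were expressed, 0 passed 2-fold and the median log2 ratio was -0.20. Notch2, the receptor, was at 111 and 107 CPM and Rbpj at 89.4 and 77.8 CPM in members, while Notch1 was at 2.23 and 4.72 CPM. Hes1, a Notch target, was at 55.2 and 37.7 CPM (log2 ratio -0.50; ratio 0.460 to 0.981) and Lfng, which glycosylates Notch, at 132 and 111 CPM (-0.24). Relb, the noncanonical NF-kB subunit, was at 269 and 322 CPM (0.25), and Traf3, an inhibitor of that pathway, at 66.9 and 40.1 CPM (-0.67). Ltbr, the lymphotoxin-beta receptor, was below the level limit, at 35.1 and 17.7 CPM. Of 18 genes of the Notch-dependent list in the files, 6 were expressed, with a median of -0.02 and 0 past 2-fold. Cd81, a tetraspanin, was lowest in it at 111 and 60.1 CPM (-0.84; ratio 0.398 to 0.716) and Cd83 highest at 87.3 and 113 CPM (0.36). Siglecg was at 241 and 249 CPM and Runx3, a transcription factor, at 302 and 283 CPM.

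**Figure D4:**
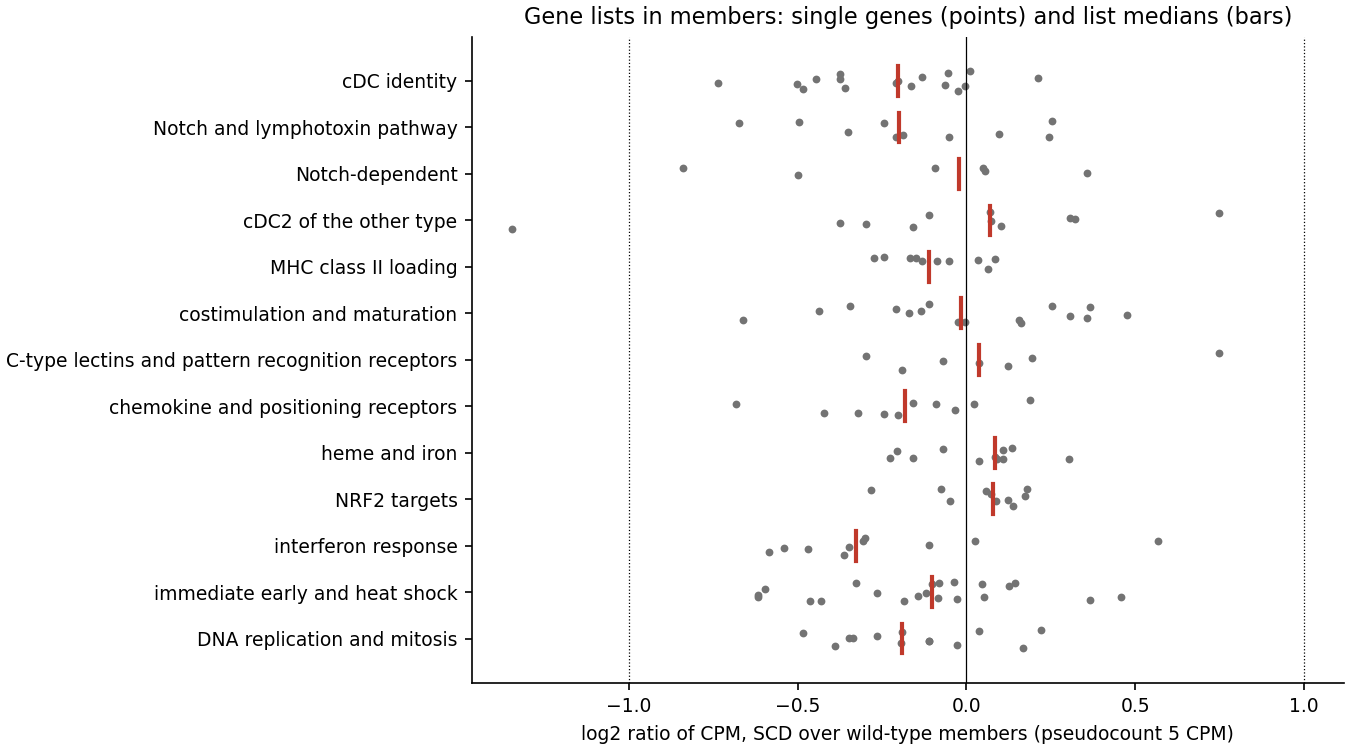
Log2 ratio of CPM, SCD over wild-type members (pseudocount 5 CPM), for expressed genes of the 13 gene lists. Points are genes, red bars list medians, and dotted lines mark 2-fold. The medians lie between -0.33 (interferon response) and 0.08, and Lyz2 is the point beyond the lower dotted line.

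Antigen presentation and maturation genes had medians of -0.11 and -0.02, beside -0.04 over all expressed genes. The gate genes Cd74 and H2-Ab1 were at 20782 and 18433 CPM and at 8952 and 8321 CPM. Outside the gate, 10 of 13 genes for MHC class II loading were expressed with a median log2 ratio of -0.11 and 0 past 2-fold. Ciita, the master regulator of MHC class II, was at 894 and 805 CPM (-0.15), and H2-DMa and H2-Oa, a catalyst and a modulator of peptide loading, at 690 and 649 CPM and at 538 and 551 CPM. Of 28 costimulation and maturation genes, 16 were expressed and the median was -0.02. Of the 16, 7 were above equality, beside 1523 of all 3480 expressed genes. Cd86 was at 63.9 and 90.8 CPM (0.48; ratio 1.10 to 1.81), Cd80 at 60.8 and 43.6 CPM (-0.44) and Cd40 at 66.3 and 40.1 CPM (-0.66; ratio 0.414 to 0.858). At least 10 UMIs of the maturation list among 3000 were held by 36.1% (32.8 to 39.6) of wild-type and 41.5% of SCD members, whose interval reached 51.5%. These values concern cells within the type, while mature DCs had been set apart by Ccr7 and Fscn1.

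Heme, iron and oxidative stress genes bear on the heme that sickling red cells release, and both lists had medians of 0.08, beside -0.04 over all expressed genes. Of 26 heme and iron genes, 11 were expressed, with a median log2 ratio of 0.08 and 0 past 2-fold. Hmox1, which degrades heme, was at 22.6 CPM (152 UMIs) and 14.1 CPM (12 UMIs), a ratio with a counting interval of 0.316 to 1.12. Its share of cells went the other way. At 3000 UMIs it was seen in 11 of 783 wild-type (1.4%, 0.70 to 2.5) and 3 of 106 SCD members (2.83%, 0.59 to 8.05), with overlapping intervals. The ferritin chains Fth1 and Ftl1 were at 2418 and 2606 CPM (0.11) and at 1655 and 1784 CPM (0.11), and Tfrc, the transferrin receptor, at 100 and 111 CPM (0.13). The NRF2 target list had 10 of 24 genes expressed, a median of 0.08 and 0 past 2-fold, with Prdx1 at 256 and 282 CPM (0.14) and Gsr at 54.2 and 43.6 CPM (-0.28). The interferon response list had the lowest median, -0.33 over 10 of 33 genes. Of the 10, 2 were above equality, beside 1523 of all 3480 expressed genes. Irf1 was at 99.9 and 70.8 CPM (-0.47), Isg15 at 52.0 and 34.2 CPM (-0.54) and Trim30a, named above, at -0.58. Ifi27l2a went the other way at 331 and 493 CPM (0.57; ratio 1.34 to 1.65).

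Receptors that sense pathogens or position the cells came in 2 lists. Of 30 C-type lectin and pattern recognition genes, 7 were expressed with a median log2 ratio of 0.04, and of 22 chemokine and positioning receptor genes 10 with a median of -0.18, all short of 2-fold. Gpr183, the oxysterol receptor that brings these cells to the bridging channels, was at 117 and 104 CPM (-0.16). Its share of cells differed more. At 3000 UMIs it was seen in 25.67% (22.64 to 28.88) of wild-type and 14.15% (8.14 to 22.26) of SCD members. Itgal, an integrin subunit, was at 109 and 66.0 CPM (-0.68; ratio 0.453 to 0.796), and Itga4 at 722 and 608 CPM (-0.24). Of the genes of the other cDC2 type, 11 of 21 were expressed in members, with a median of 0.07 and Lyz2 alone past 2-fold.

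Division genes had a median below 0 in members and above 0 in the Cd209a type and cDC1, a contrast that was not tested. Of 27 replication and mitosis genes, 13 were expressed in members, with a median log2 ratio of -0.19 and 0 past 2-fold, and Mki67 was at 160 and 122 CPM (-0.39). In the Cd209a type the median of 14 expressed genes was 1.43, and in cDC1 the median of 10 genes was 0.57, beside all-gene medians of -0.03 in each. With members held under 0.3% of S100 UMIs (17 SCD cells, added after the data were seen), the members' median was 0.83. Counted per cell instead, 57.2% (53.7 to 60.7) of wild-type and 69.8% (60.1 to 78.4) of SCD members held at least 5 UMIs of the list among 3000, the opposite direction to the sums. The median was 5 and 7 UMIs per cell, and the highest member held 100 and 88. The immediate early and heat shock list had 21 of 32 genes expressed and a median of -0.10 in members, -0.78 in the Cd209a type and -0.34 in cDC1. At least 10 UMIs of it among 3000 were held by 88.1% (85.6 to 90.3) of wild-type and 71.7% (62.1 to 80.0) of SCD members. Hspa8, a chaperone, was at 1042 and 678 CPM (-0.62), Fosb at 128 and 81.4 CPM (-0.62) and Egr1 at 69.4 and 90.8 CPM (0.36).

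Against the Cd209a type, which the rule itself kept apart, the members differed in many genes. Of 3897 genes outside the rule expressed in either type, 389 were at least 2-fold higher (9.98%) and 234 lower (6%) in wild-type members, and 496 (12.7%) and 295 (7.57%) in SCD members. These counts describe the choice of cells and nothing is read from them. The median over all genes was 0.14 in both libraries, and after median-of-ratios scaling, which sets it to about 0, the counts were 299 and 283 in the wild-type and 397 and 352 in the SCD library. Both libraries shared 318 higher genes (81.8% of the list from the wild-type mouse and 64.1% of that from the SCD mouse) and 194 lower genes (82.9% and 65.8%). Ube2c and Fos had opposite calls in the 2 libraries (plot of members against the Cd209a type).

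Ryr3 and Scn3a, known from excitable cells, were among the genes furthest above the Cd209a type. Ryr3, a calcium release channel, was at 154 CPM in wild-type and 182 CPM in SCD members, against 1 UMI (0.703 CPM) and 0 UMIs in the Cd209a type, and was at least 73.6-fold higher in the SCD library. Scn3a, a sodium channel subunit, was at 163 and 130 CPM, against 3 and 0 UMIs (at least 52.6-fold higher in SCD). Tmod2, an actin-capping tropomodulin, was at 68.2 and 75.5 CPM, against 2 and 0 UMIs (at least 30.6-fold), and Sucnr1, the succinate receptor, at 74.9 and 66.0 CPM, against 7 and 0 UMIs (at least 26.8-fold). Adam23, a cell surface protein of the disintegrin family, was at 1154 and 989 CPM in members, in 97.1% and 96.3% of cells, against 132 and 46.0 CPM in the Cd209a type. Ccl5, a chemokine for T cells, was at 649 and 830 CPM (log2 ratios 3.03 and 5.46), and H2-Eb2, an MHC class II beta chain, at 369 and 324 CPM, against 40.8 and 7.40 CPM. Gpm6b, Lysmd2, Tbc1d4, Asb2 and Arap2 completed the named genes, with log2 ratios of 2.67 to 3.34 in the library of the control mouse and of 3.99 to 4.29 in that of the SCD mouse. Many of these genes were also high in mature DCs. Ryr3 (428 and 525 CPM in mature DCs), Ccl5 (3289 and 1907 CPM), H2-Eb2 (997 and 857 CPM), Tbc1d4 (2552 and 1940 CPM), Tmod2 (112 and 144 CPM), Gpm6b (151 and 126 CPM) and Adam23 (1209 and 1105 CPM) were higher there than in members in both libraries. Lysmd2 and Arap2 were so in the wild-type and Sucnr1 in the SCD library, while Scn3a and Asb2 were lower in mature DCs in both.

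**Figure D5:**
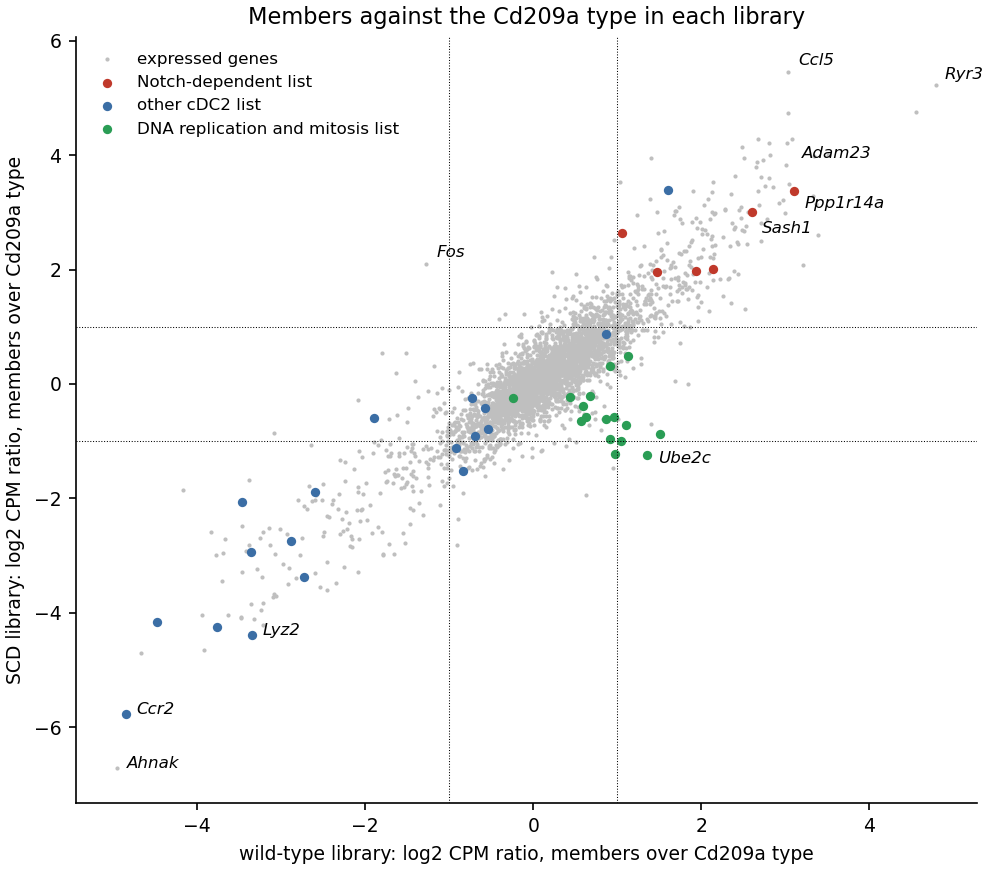
Log2 ratio of CPM, members over the Cd209a type, in the wild-type (horizontal) and SCD (vertical) library. Points are genes expressed in either type, coloured by 3 of the lists, and dotted lines mark 2-fold in each library. All 6 Notch-dependent genes lie at the upper right, most genes of the other cDC2 list at the lower left, and most replication and mitosis genes are above 0 in the wild-type and below 0 in the SCD library.

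Ahnak, Ccr2 and Crip1 were the genes furthest below the Cd209a type. Ccr2, the receptor for monocyte egress, was at 25.5 CPM in wild-type and 18.9 CPM in SCD members, against 872 and 1304 CPM in the Cd209a type. Ahnak, a large scaffold protein, was at 29.8 CPM (200 UMIs) and 1.18 CPM (1 UMI), against 1077 and 644 CPM. Crip1, a LIM domain protein, was at 97.4 and 100 CPM, against 2593 and 2746 CPM, and Cx3cr1, the fractalkine receptor, had log2 ratios of -3.77 and -4.24. Lyz2 was at 6548 and 5283 CPM in the Cd209a type. Mcub, a mitochondrial calcium uniporter subunit, was at 4.47 CPM in wild-type and at 0 UMIs in SCD members, at least 23.0-fold lower than the 81.4 CPM of the SCD Cd209a type. Ccl9, F13a1, Cd93, Fn1 and Lgals1 had log2 ratios between -3.48 and -4.47 in the control and between -4.05 and -4.65 in the SCD animal. Part of the remaining level sat in few members, since 72.5% of the Ahnak and 80.7% of the Ccr2 UMIs of wild-type members lay in 10 cells.

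The lists fixed for this comparison were chosen with earlier results known and describe the cells chosen. Over all genes outside the rule, 9.98% and 12.7% were at least 2-fold higher and 6% and 7.57% lower in members, with a median of 0.14 in both libraries. All 6 expressed genes of the Notch-dependent list were at least 2-fold higher in members in both libraries (medians 2.04 and 2.32), with Cd81 at 111 and 60.1 CPM in members against 25.3 and 11.5 CPM. Cd5 and Gpr4, below the level limit, were at 27.0 and 31.8 CPM against 2.81 and 0.822 CPM and at 22.8 and 27.1 CPM against 2.11 and 0.822 CPM. Of 18 expressed genes of the other cDC2 type, 10 and 11 were at least 2-fold lower (medians -2.25 and -1.71), while Il4i1 was higher and Cd7, at 485 and 509 CPM against 263 and 277 CPM, was within 2-fold. Of 16 maturation genes, 9 and 12 were at least 2-fold higher (medians 1.06 and 1.56), among them Cd274 (PD-L1) at 164 and 145 CPM against 20.4 and 4.93 CPM and Mreg at 55.6 and 62.5 CPM against 2.11 and 1.64 CPM. Ltb was at 818 and 637 CPM against 117 and 53.4 CPM, Kit at 285 and 259 CPM against 44.3 and 27.9 CPM and Ccr6 at 64.9 and 47.2 CPM against 4.22 and 0.822 CPM.

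Among 11 expressed MHC class II loading genes, 4 were at least 2-fold higher and 1 lower in members, in each library, beside 9.98% and 12.7% higher and 6% and 7.57% lower over all genes. H2-Oa, H2-Ob and H2-DMb2 were at 538 and 551, 331 and 278 and 559 and 539 CPM in members, against 169 and 126, 97.0 and 87.1 and 141 and 77.3 CPM in the Cd209a type. H2-DMb1 was lower in members, at 244 and 222 CPM against 669 and 776 CPM, and H2-DMa was within 2-fold, at 690 and 649 CPM against 859 and 907 CPM. Cst3 (cystatin C) was at 1708 and 1485 CPM against 4840 and 4862 CPM, and Irf8, the cDC1 factor, at 17.4 and 16.5 CPM against 243 and 116 CPM. H2-DMb1 and H2-DMb2 are close copies, so reads may be split between them. Of 14 interferon response genes, 6 and 5 were at least 2-fold lower in members (6% and 7.57% over all genes), with Ifitm3 at 742 and 756 CPM against 3581 and 4523 CPM and Bst2 at 80.9 and 62.5 CPM against 251 and 233 CPM.

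In summed UMIs, the replication and mitosis list stood on opposite sides of the Cd209a type in the 2 animals. Its median log2 ratio, members over the Cd209a type, was 0.92 in the wild-type library and -0.60 in the SCD library. In the wild-type library 15 of 16 genes were above equality and 5 at least 2-fold higher. In the SCD library 2 of 16 were above equality and 2 at least 2-fold lower. Over all 3897 genes, 2320 (wild-type) and 2269 (SCD) were above equality, with a median of 0.14 in both. Of them, 9.98% were at least 2-fold higher in the wild-type and 7.57% lower in the SCD library. Nothing is read from the list's counts past 2-fold. Mki67 was at 160 CPM in members and 71.7 CPM in the Cd209a type of the wild-type mouse, and at 122 and 202 CPM in the SCD mouse. Top2a was at 146 and 72.4 CPM and at 127 and 192 CPM, and Ube2c at 78.2 and 27.4 CPM and at 76.7 and 187 CPM. Members held similar sums in both animals, and the Cd209a type held higher ones in the SCD mouse. Of the early response genes, Fos was at 36.9 CPM in members against 96.3 CPM in the wild-type and at 34.2 against 4.11 CPM in the SCD library.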

How the data were processed

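Spleen cells enriched for DCs from 1 wild-type and 1 SCD mouse were profiled by droplet 3′ single-cell RNA sequencing. The deposited matrices held UMI counts per gene and barcode, which the authors made from the reads, and the submitters' processing notes name Cell Ranger 4.0.0, Seurat 3.2.3, R 4.4, Scanpy 1.6.0 and GRCm38.p6. Positions were taken from GENCODE vM21.

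Groups followed the labels. Cells with 500 to 5000 genes, under 15% mitochondrial and under 30% ribosomal UMIs were kept, and the rule was applied to raw UMIs. The comparison cells used the same limits with at least 3 UMIs of Cd209a, Clec10a and Mgl2 (Cd209a type), of Xcr1 and Clec9a (cDC1) or of Ccr7 and Fscn1 (mature DCs) and at most 1 UMI of the other sums. Mature DCs had no limit on the gate genes or the Cd209a set. Neutrophils had at least 5% S100a8 and S100a9. The members and gene lists were chosen with earlier results of these data known. UMIs were summed per library and type, scaled to CPM and compared as log2 ratios with 5 CPM added. A gene counted as expressed with at least 50 CPM and 20 UMIs in 1 of the groups compared, and no test was run. Genes of the rule were left out of counts of genes past 2-fold and of list summaries. Intervals were at 95% and exact for shares, summed UMIs and ratios of a gene between groups, the last without the added 5 CPM. Intervals of a ratio of 2 shares used a normal approximation on the log scale. Shares at equal depth were taken after thinning to 3000 UMIs. Neighbors were the 15 nearest in 20 principal components without the genes of the rule.

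Named genes were the 12 highest and 12 lowest expressed genes of each comparison, besides the genes of the rule and the lists. A few of these genes are not reported here. The ranking left out genes of the rule, antigen receptor genes, hemoglobin genes, mitochondrial and ribosomal genes, Xist, Tsix, Y-linked genes and the markers of neutrophils, lymphocytes and erythroid cells. Scrublet called 17 of 788 wild-type and 0 of 108 SCD members doublets, and 3.75% and 2.36% of all kept cells. They were retained, with removal as an alternative. Other alternatives changed the gate thresholds and genes, the filters on cells, the pseudocount, scaling, expression limits and weights of cells. The code was checked on simulated data. Analysis used scanpy 1.11.5, scikit-learn 1.9.0, scipy 1.17.1, numpy 2.4.6 and pandas 2.3.3 in Python 3.11.15, and plots matplotlib 3.10.9. Promoters came from RefSeq (GRCm38.p6).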

Additional observations from a re-analysis of the deposited data

How the results depend on the processing

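No paired analysis was possible because there was a single mouse of either genotype, and for the same reason no sample could be left out. The SCD over wild-type ratio of the members' share was below 1 in every setting run, which for the 0.3% limit below says nothing of stability. Of kept cells it was 0.121 as reported, 0.219 with only kept cells under the S100 limit as the denominator, 0.0721 with the rule applied to cells thinned to 5000 UMIs and 0.0194 with S100a8 and S100a9 under 0.3% of UMIs, which left 778 wild-type and 17 SCD members. Of MHC class II gate cells it was 0.520 as reported, 0.423 after thinning and 0.192 under the 0.3% limit. That limit lowers the SCD count by its own construction, since the median member held 1635 CPM of S100a8 and 2182 CPM of S100a9 in the SCD library, against 231 and 349 CPM in the wild-type. The 0.3% and 2% limits and the removal of the top 2% of members per gene were added after the data were seen. For SCD against wild-type members, 9 higher and 11 lower genes became 38 and 96 with a limit of 10 UMIs and no minimum CPM (both limits changed at once) and 27 and 189 under the 0.3% limit. The lower genes numbered 6 with at least 100 CPM and 50 UMIs, 19 with a gate sum of at least 5 and 26 with Cd4 left out of the sum. Higher genes were 45% of those past 2-fold as reported, 50% after median-of-ratios scaling, 28.4% with that limit, 27.8% without Cd4 and 12.5% under the 0.3% limit. The log2 ratio of Lyz2 turned from -1.35 to 1.43 without the 2% of members with most of its UMIs. Against the Cd209a type, higher and lower genes numbered 897 and 474 (wild-type) and 1166 and 629 (SCD) with at least 10 UMIs and no minimum CPM, and 221 and 122 and 268 and 171 with at least 100 CPM and 50 UMIs. Median-of-ratios scaling moved the share of higher among those genes from 62.4% to 51.4% (wild-type) and from 62.7% to 53.0% (SCD). Apart from Lyz2, no named log2 ratio past 2-fold changed sign in the settings run. Of the values, 535 lay inside and 243 outside the counting interval of the gene's ratio. That interval was taken without the pseudocount that the values carry, so a value can lie outside through the pseudocount alone. The cause of the other shifts was not tested.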
